A study of Mus musculus with 42 samples.

Results

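The livers of 16 female APOE*3-Leiden mice on a Western-type diet (WTD) and of 10 on chow were compared by RNA sequencing, across all genes with enough counts. The members were the libraries labelled WTD32w or Chow32w, which are 26 of the 42 samples of the series. The other samples came from mice given atorvastatin with the WTD and were not part of the comparison. Every mouse carried the APOE*3-Leiden transgene, a human APOE variant that slows the clearance of remnant lipoproteins, so the chow-fed mice share it and are not wild type. The WTD was semi-synthetic and held 15% cocoa butter, 40.5% sucrose and 1% cholesterol by weight. The WTD-fed mice were 8 to 14 weeks old at the start, had a run-in of 3 weeks on this diet, and were killed 32 weeks later. From week 22 their diet also held 0.05% sodium cholate, a bile salt. Chow was a maintenance diet, also labelled with 32 weeks, and no separate age is given for that group. Whether both groups ran at the same time is not given in the sources used here. The methods list animal study codes without tying them to a diet. Fat, sugar, cholesterol and cholate all differ between the groups and cannot be told apart. The labels number the chow-fed mice with the prefix AZ and the WTD-fed mice with the prefix Gen, without saying what the prefixes mean, and whatever goes with the prefix cannot be told apart from the diet either.

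The liver makes cholesterol from acetyl-CoA, and turns it into bile acids. When cells hold much cholesterol, the transcription factor SREBP2 stays in the endoplasmic reticulum and the genes of cholesterol synthesis are transcribed less. Oxysterols activate LXR, which raises genes of sterol export and of fatty acid synthesis. In steatohepatitis, macrophages that take up lipid, activated stellate cells that lay down collagen, and a ductular reaction of cholangiocyte-like cells are known features, while hepatocytes lose part of their metabolic program.

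The promoters of genes of cholesterol synthesis are shown because these genes lay lower on WTD nearly as a whole. The windows are from RefSeq (GRCm38.p6), from 250 bases before to 50 after the annotated start, 5′ to 3′ on the gene's strand. They belong to the 3 genes of this list with the largest falls among those with a window. Idi1 lies at chr13:8885356-8885655 (plus strand), Msmo1 at chr8:64733529-64733828 (minus strand) and Hmgcs1 at chr13:119690101-119690400 (plus strand). Capitals mark the CCAAT box, bound by NF-Y, on either strand (CCAAT or ATTGG), and the core of the sterol regulatory element, CACCCCAC, of which the 3 windows hold 1.
Idi1: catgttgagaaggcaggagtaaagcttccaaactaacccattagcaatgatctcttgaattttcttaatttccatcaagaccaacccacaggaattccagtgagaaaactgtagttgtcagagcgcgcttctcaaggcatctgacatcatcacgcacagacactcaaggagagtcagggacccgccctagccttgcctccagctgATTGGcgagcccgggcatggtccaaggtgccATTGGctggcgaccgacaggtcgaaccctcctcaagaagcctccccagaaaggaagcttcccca
Msmo1: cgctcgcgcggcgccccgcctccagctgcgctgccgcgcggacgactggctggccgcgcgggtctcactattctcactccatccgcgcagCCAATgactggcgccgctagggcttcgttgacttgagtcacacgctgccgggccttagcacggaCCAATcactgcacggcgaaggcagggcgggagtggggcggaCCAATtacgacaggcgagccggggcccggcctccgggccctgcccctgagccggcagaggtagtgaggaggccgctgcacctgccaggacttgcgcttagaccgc
Hmgcs1: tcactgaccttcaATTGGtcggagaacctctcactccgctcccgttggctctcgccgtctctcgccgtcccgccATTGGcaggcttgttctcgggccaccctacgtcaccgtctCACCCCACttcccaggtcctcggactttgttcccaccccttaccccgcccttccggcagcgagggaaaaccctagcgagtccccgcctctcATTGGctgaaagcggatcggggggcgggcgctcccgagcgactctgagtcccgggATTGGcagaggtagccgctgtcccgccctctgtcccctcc
A RefSeq window was found for 16 of the 21 tested genes of cholesterol synthesis. The letters CCAAT, searched on both strands, were in 15 of these 16, in 42.3% of the 11177 tested genes with a window and in 41.1% of all 27025 genes with one. The letters CACCCCAC were in 2 of the 16 and in 3.93% of the tested genes. For comparison, TCACGTGA, the core of the element bound by the lysosomal regulator TFEB, was in 6 of 30 windows of the lysosome list and in 2.01% of the windows of all tested genes. CCAAT and CACCCCAC can share at most 1 base, and a match describes letters only.

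Each library held 15661381 to 36224054 read pairs assigned to genes. Total counts gave no detectable difference between the groups (permutation test, adjusted p = 0.88). The 20 most abundant genes took 22.9% of counts on chow and 20.5% on WTD (adjusted p = 8.0e-05, permutation test). All genes of the mitochondrial chromosome together took 4.06% of counts on chow and 3.54% on WTD (adjusted p = 0.0039, permutation test). Some libraries missed many weakly expressed genes: over 20% of the genes at 1 to 2 CPM in their group had no count in 3 chow and 5 WTD libraries. The chow libraries were those of mice 2 (57.3%), 5 (43.1%) and 6 (24.4%), and the WTD libraries those of mice 8, 9, 10, 15 and 16. CPM stands for counts per 1000000, scaled by the TMM method. Defining hepatocyte markers were high in all 26 livers, with Alb at 78840 CPM or more on chow and 37028 or more on WTD. On the first principal component, which held 60.3% of the variance, the chow-fed mice lay between -46.6 and -29.1 and 15 WTD-fed mice between 16.8 and 29.9. WTD mouse 15 stood apart at -2.65. Chow mouse 1 carried RNA of skeletal muscle and antibody genes: Acta1, an actin of skeletal muscle chosen after the values were seen, was at 827 CPM there and at 0 to 0.847 in the other chow-fed mice, and Ighm, the heavy chain of IgM, was at 1370.1 CPM and at 11.5 to 36.2 in the others.

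**Figure D1:**
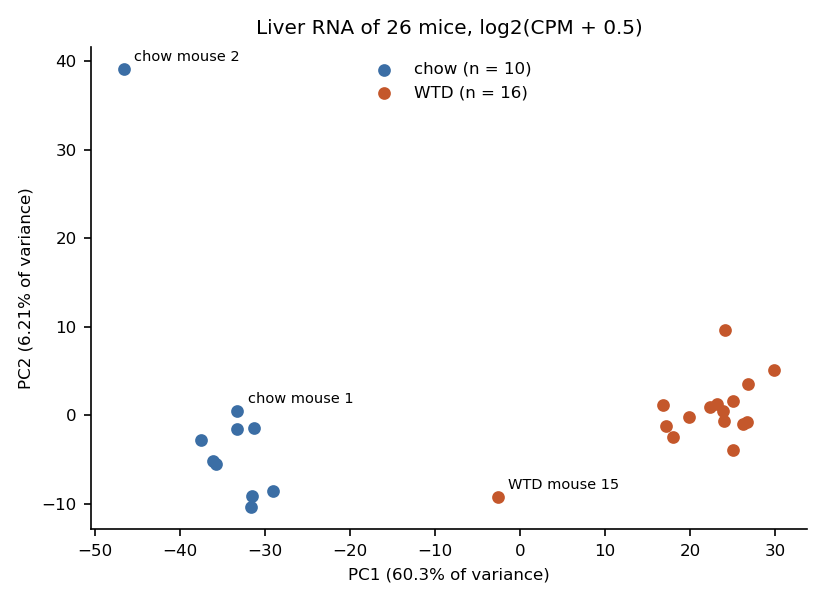
First and second principal component of log2(CPM + 0.5) over 6143 genes with a mean of at least 500 counts, with 1 point per mouse. The diets separate along the first component, WTD mouse 15 lies at -2.65 between them, and chow mouse 2 stands alone at 39.1 on the second. The library of chow mouse 2 missed 57.3% of weakly expressed genes.

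Of 14979 tested genes, 4399 (29.4%) differed between the diets at an adjusted p under 0.01 in the quasi-likelihood test of edgeR (p adjusted by Benjamini-Hochberg), which is what "rose", "fell" and "called" refer to below. On WTD 2316 genes (15.5%) were higher and 2083 (13.9%) were lower. The median log2 fold change (WTD minus chow) of all tested genes was 0.04, with quartiles of -0.33 and 0.51. Large changes were mostly rises: among called genes whose log2 fold change was 1 or more in size there were 1360 higher and 449 lower, and at 3 or more there were 219 higher and 57 lower. In 544 genes (3.63%) every WTD-fed mouse lay above every chow-fed mouse, and in 368 (2.46%) every one lay below. Counts in the lists below are to be read beside these shares of called and non-overlapping genes. Without chow mouse 1 and WTD mouse 15 there were 4443 called genes, of which 2330 were higher and 2113 lower. Over all tested genes the median SD of log2(CPM + 0.5) between mice was 0.450 on chow and 0.391 on WTD, and it was larger on WTD in 40.4% of genes. Over the 3439 genes with a mean of at least 1000 counts it was 0.219 on chow and 0.220 on WTD. In whole liver, fewer cells of a type and less RNA per cell cannot be told apart, which holds for every list below.

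**Figure D2:**
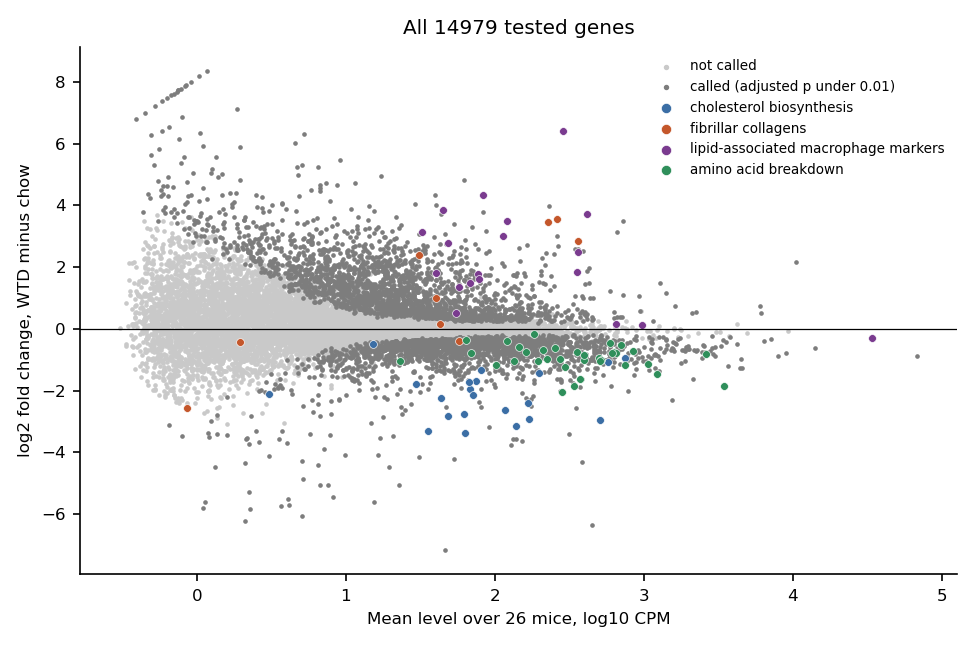
Log2 fold change (WTD minus chow) against the mean level over 26 mice (log10 CPM) for the 14979 tested genes. The 4 coloured lists hold the genes of cholesterol biosynthesis (median -2.15), amino acid breakdown (-0.96), fibrillar collagens (1.00) and lipid-associated macrophages (1.84), and the diagonal row at the upper left holds genes with few or no counts on chow, whose fitted values depend on the model's prior.

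Cholesterol synthesis genes fell nearly throughout. Of 21 tested genes 20 fell and 0 rose, with a median log2 fold change of -2.15, and in 18 of them the groups did not overlap. Sqle, squalene epoxidase, was at 100.1 to 198 CPM (median 147) on chow and 4.5 to 29.2 CPM (median 11.7) on WTD. Its log2 fold change was -3.38 (SE 0.22, adjusted p = 1.0e-12 in the edgeR test), a 10.4-fold lower level. Idi1, isopentenyl diphosphate isomerase, was at 45.9 to 113 CPM (median 76.9) on chow and 0.212 to 15 CPM (median 8.05) on WTD, so that no WTD-fed mouse reached the lowest chow-fed mouse. Hmgcs1, which makes HMG-CoA, fell, being at 829.6 to 1547 CPM (median 996) on chow and 72.7 to 209 CPM (median 138) on WTD (log2 fold change -2.96, SE 0.14). The member that was not called was Ggps1, a branch enzyme outside the sterol arm named after its values were seen, with a log2 fold change of -0.50. The SD of log2(CPM + 0.5) between mice was larger on WTD in 19 of the 21 genes, beside 40.4% of all tested genes. Its median was 0.401 on WTD and 0.284 on chow, and over all genes called lower it was 0.277 and 0.243. The part of the lower level on WTD in this spread was not tested.

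Genes of sterol sensing and lipoprotein uptake split. In this list 4 of 18 rose and 7 fell. Insig1, which holds SREBP in the endoplasmic reticulum, fell by 1.34 on the log2 scale, and Stard4, a sterol carrier, by 1.32. Rises were seen in Soat1, which esterifies cholesterol (2.48), and in Mylip, a ubiquitin ligase and LXR target (1.56), both with all WTD-fed mice above all chow-fed mice. Among the transporters (7 of 20 higher, 8 lower), sterol exporters were among the rises. Abcg5 was at 49.7 to 109.6 CPM (median 82.6) on chow and 213 to 452 CPM (median 261) on WTD, and Abcg1 at 1.41 to 13.5 CPM (median 8.06) and 62 to 101 CPM (median 81.5). These pairs of ranges do not touch. Both main bile acid carriers fell: Slc10a1, the main uptake carrier, had a log2 fold change of -1.53 and Abcb11, the export pump, of -0.88. Slco1a1 was already uneven on chow, at 0 to 64 CPM (median 11.1), and no WTD-fed mouse was above 1.39 CPM (-5.46, SE 0.756).

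Bile acid synthesis genes were lower, with 11 of 13 fallen, 0 risen and a median of -0.91. Cyp8b1, which sets the share of cholic acid, was at 196 to 473 CPM (median 304) on chow and 23.6 to 122 CPM (median 61.5) on WTD, without overlap. Cyp7a1, the rate-limiting enzyme of the classic pathway, was at 55.4 to 234 CPM (median 150.5) and 22.4 to 142 CPM (median 44.9). The highest WTD value was that of mouse 15, at 142 CPM, and the next highest was 77.4, so the ranges overlap. Cyp27a1 fell by 0.91 and Cyp7b1, both of the alternative pathway, by 1.07 on the log2 scale. Cyp2c70, which makes muricholic acids in mice, was not called (-0.22, adjusted p = 0.027 in the edgeR test). Nr0b2, the repressor SHP, was also not called (-0.14, SE 0.165).

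Fatty acid synthesis genes did not move as 1 block: 7 of 18 rose, 4 fell and 7 were not called. Scd1, which makes monounsaturated fatty acids, was at 1703 to 6114 CPM (median 3015) on chow and 8639 to 22819 CPM (median 15542) on WTD, and in all WTD-fed mice it exceeded all chow-fed mice. Scd2, its isoform, had a log2 fold change of 2.88 (SE 0.186). Acss2, which makes acetyl-CoA from acetate, fell, being at 322 to 786 CPM (median 485) on chow and 79 to 318 CPM (median 139) on WTD without overlap, and Mlxipl, the carbohydrate sensor ChREBP, fell by 1.02. Fasn, fatty acid synthase, was not called (0.59, SE 0.308) and spread from 322 to 3152 CPM within the WTD group. Of the lipid droplet and lipolysis genes 4 of 18 rose and 6 fell. Cidec, a droplet fusion protein, was at 0 to 5.44 CPM (median 0.907) on chow and 2.47 to 11.8 CPM (median 5.81) on WTD, and Plin4, a droplet coat protein, had a log2 fold change of 1.65. Plin2, the most general droplet coat, was not called at 0.15 (SE 0.113). G0s2, an inhibitor of lipolysis, fell by 1.22.

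Fat burning and respiration genes were lower in many small steps. Of 19 genes of mitochondrial fatty acid oxidation 16 fell and 0 rose (median -0.55), with Acsl1 at -0.99 and Acaa2 at -0.83. Cpt1a, the gate of the mitochondrion for fatty acids, was not called (0.18, SE 0.117). PPAR alpha targets and ketogenic genes fell in 10 of 19, and 0 rose. Among them Acot3, a peroxisomal thioesterase, had a log2 fold change of -2.53 (-3.14 without WTD mouse 15), Cyp4a14, an omega-hydroxylase, of -1.86, and Ppara of -0.61. Nuclear genes of complex I fell in 29 of 36 (median -0.58), those of complexes II to IV in 20 of 28, with 1 rise in Cox7a2l (0.25), and those of ATP synthase in 14 of 16. Of the 13 mRNAs the mitochondrion encodes, 12 were tested and 9 of these fell (median -0.59). The tricarboxylic acid cycle list moved less, with 5 of 18 genes lower, 0 higher and a median of -0.16. Its called share was 27.8%, all of it lower, beside 13.9% of all tested genes called lower and 29.4% called in either direction.

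Sugar handling genes went both ways. In the list of gluconeogenesis and glycolysis 8 of 24 genes rose and 7 fell. Pck1 (-0.82) and G6pc (-0.84), the first and last enzymes of gluconeogenesis, fell, while Hk3 (2.00), Hk2 (1.60) and Pkm (1.74), which are low in hepatocytes, rose. Without chow mouse 1 the log2 fold change of Hk2 was 2.34. Hk2 was close to the threshold, at 0.0089 for edgeR's adjusted p.

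Nitrogen metabolism genes fell as a group. Of 35 genes of amino acid breakdown 34 fell, 0 rose and the median was -0.96. Gnmt, glycine N-methyltransferase, was at 1488 to 2789 CPM (median 2033) on chow and 459 to 1116 CPM (median 744) on WTD. Cth, which makes cysteine, was at 487 to 723 CPM (median 623) and 101 to 253 CPM (median 157). In neither gene did a WTD-fed mouse reach the chow range. Hal, histidine ammonia-lyase, had a log2 fold change of -2.04 (SE 0.201), and Tat and Tdo2, which break down tyrosine and tryptophan, of -1.18 and -0.54. The urea cycle list fell in 10 of 12 genes (median -0.84): Asl by 1.42, Gls2 by 1.37, Arg1 by 0.92 and Cps1, its entry enzyme, by 0.65.

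Enzymes that handle drugs, steroids and bile acids fell widely. Of 47 tested cytochrome P450 genes of families 1 to 3, 34 fell and 1 rose (median -1.02). Cyp2c69 was at 328 to 1304 CPM (median 1015) on chow and 1.91 to 291 CPM (median 25.7) on WTD. Cyp2b10, the classic target of the receptor CAR, was at 10.2 to 40.0 CPM (median 22.7) and 0 to 6.01 CPM (median 0.652). Both genes separated the diets without overlap, although Cyp2c69 spanned a wide range within each. The Cyp3a genes Cyp3a41b (-5.07), Cyp3a44 (-4.49), Cyp3a41a (-4.21) and Cyp3a16 (-4.14) are near-identical neighbours on chromosome 5, so how reads were divided among them is uncertain. Cyp3a11, the abundant member, fell less (-0.64). The 1 rise was Cyp1b1, found mostly outside hepatocytes (2.86, SE 0.416), and Cyp2a5 was not called (0.07). Sulfotransferases fell in 10 of 16 and rose in 2. Sult3a1 was at 49.6 to 192 CPM (median 122) on chow and 0 to 7.21 CPM (median 0.141) on WTD, with no count in 8 of the 16 WTD-fed mice, and Sult5a1 had a log2 fold change of -5.07. Sult1e1, which inactivates estrogens, rose, being at 0 to 6.08 CPM (median 0.48) on chow and 4.82 to 35.4 CPM (median 14.7) on WTD. Of 21 UDP-glucuronosyltransferases 9 were tested, of which 8 fell (median -0.83) and 0 rose. Glutathione S-transferases went both ways, 4 of 22 up and 8 down, from Gstm3 at 1.98 to Gsta3 at -1.01. Among receptors and partners of this system 15 of 21 fell and 2 rose, with Nr1i3, the receptor CAR, at 394 to 666 CPM (median 556) on chow and 134 to 487 CPM (median 185) on WTD.

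All mice were female, and genes that are higher in female than in male liver fell as a group: 20 of 26 fell, 0 rose and the median was -2.04. Without WTD mouse 15 alone 22 fell and the median was -2.81. Several belong to the P450 and sulfotransferase lists too. A1bg, a secreted plasma protein, was at 373 to 2258 CPM (median 851) on chow and 1.19 to 43.5 CPM (median 12.9) on WTD, an 82.6-fold lower level. Genes with the opposite sex bias did not rise as a group, as 4 of 22 rose and 11 fell. Mup20, a urinary pheromone protein, rose, being at 38.8 to 166 CPM (median 74.5) on chow and 52.2 to 896 CPM (median 529) on WTD, and Serpina12 rose by 2.11 on the log2 scale, while Serpina1e fell by 3.58. Mup and Serpina1 genes are families of near-identical copies, and their single values are uncertain. In the growth hormone axis 8 of 20 genes fell and 3 rose. Ghr, the receptor, was at 456 to 584 CPM (median 546) on chow and 223 to 516 CPM (median 276) on WTD. Igf1 fell by 0.77, Igfals by 1.44 and Cux2, a repressor of male-biased genes, by 1.38. Socs2 (0.06), Igfbp1 (-0.15) and Bcl6 (-0.67) were not called.

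**Figure D3:**
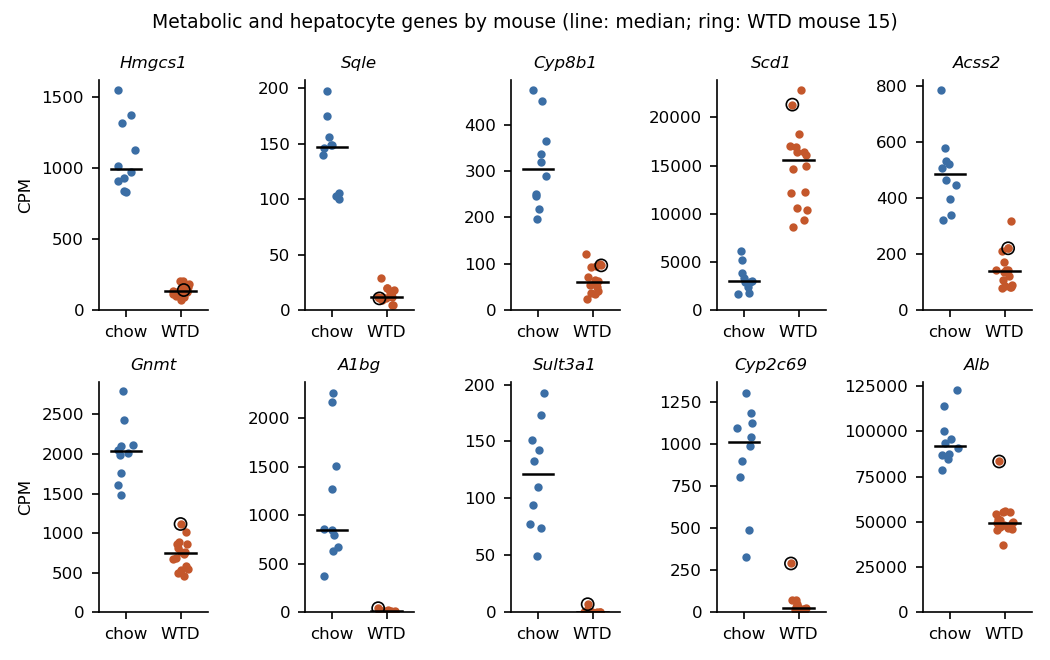
CPM of 10 metabolic and hepatocyte genes in each mouse, with chow (10 mice) and WTD (16 mice) side by side, a line at the median and a ring around WTD mouse 15. Sqle and Scd1 of mouse 15 lie among the other WTD-fed mice, whereas its Alb and A1bg are the highest of the WTD group.

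Genes that mark the hepatocyte fell. All 15 tested hepatocyte markers were lower (median -0.80), and their summed level was 128223 to 185303 CPM on chow and 63397 to 125030 CPM on WTD. The part of this difference in the falls of the metabolic lists above was not tested. Alb, albumin, was at 78840 to 122782 CPM (median 91930) on chow and 37028 to 83318 CPM (median 49609) on WTD, with WTD mouse 15 highest of its group. Hnf4a, the master factor of the hepatocyte, fell by 0.29 (adjusted p = 0.0059 in the edgeR test). Secreted plasma proteins fell in 29 of 35 and rose in 2. Apoc3 had a log2 fold change of -1.35, Apoa1 of -0.79, Ahsg of -0.89 and Gc of -0.40. Apoa4, known to rise in fatty liver, went the other way, with 253 to 674 CPM (median 372) on chow and 718 to 1423 CPM (median 876) on WTD. Apoe fell by 0.31, and whether reads of the human transgene were counted on the mouse gene is not given in the sources used here. Of 29 transcription factors 4 rose and 12 fell, among them Cebpa (-0.31). Without chow mouse 1 this list had 2 rises and 13 falls. Genes of both ends of the lobule fell: 14 of 23 pericentral genes (median -0.53) with 2 rises, and 21 of 25 periportal genes (median -0.89) with 1 rise. Cyp2f2, a periportal P450, was at 584 to 872 CPM (median 729.7) on chow and 42.9 to 473 CPM (median 89.6) on WTD. Glul, the pericentral glutamine synthetase, was not called (-0.21, SE 0.0996).

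Acute phase, complement and coagulation genes split by member. Acute phase proteins rose in 8 and fell in 10 of 25 (median -0.06). Lcn2, lipocalin 2, was at 9.6 to 43.7 CPM (median 25.1) on chow and 74.6 to 572 CPM (median 351) on WTD, and its lowest WTD value was that of mouse 15. Saa3 rose by 2.09 and the abundant Hp and Hpx, which bind haemoglobin and haem, by 0.75 and 0.52 on the log2 scale. Hamp, hepcidin, fell, being at 405 to 906 CPM (median 658) on chow and 96.8 to 472 CPM (median 197) on WTD, and Serpina3n was not called (0.06). Complement had 11 rises and 11 falls among 33 genes: C3ar1, a receptor of myeloid cells, rose by 2.63, and C8b, made by hepatocytes, fell by 1.18. In coagulation and fibrinolysis 8 of 33 rose and 19 fell. F7 (-0.93), Proz (-0.94) and F11 (-0.81) fell. Both plasminogen activators rose, Plat by 3.61 and Plau by 3.31. Plau was at 0 to 5.65 CPM (median 2.28) on chow and 11.3 to 37 CPM (median 25.4) on WTD.

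**Figure D4:**
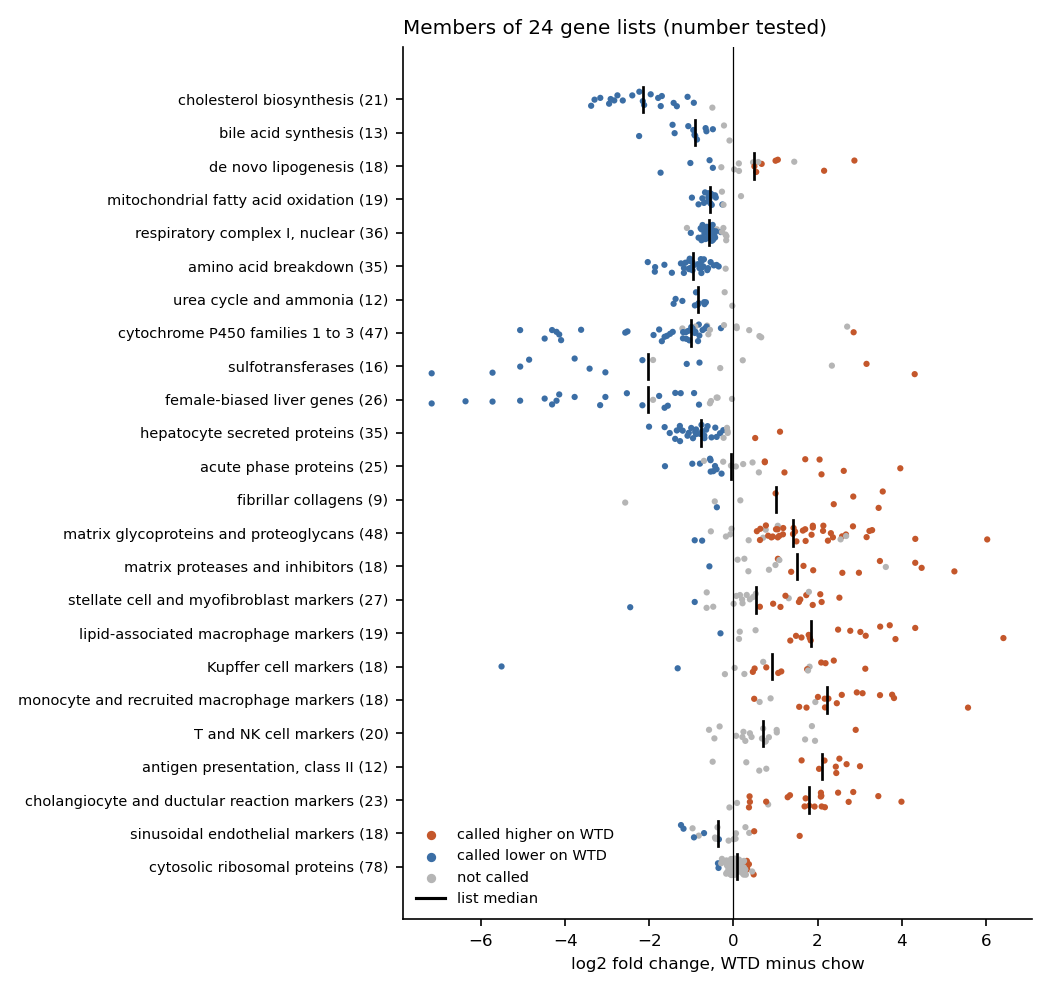
Log2 fold change (WTD minus chow) of the tested members of 24 lists, with 1 point per gene, coloured by whether it was called higher, called lower or not called, and a bar at the list median. Metabolic lists other than de novo lipogenesis have medians left of 0, matrix and myeloid lists right of it, and cytosolic ribosomal proteins sit at a median of 0.07.

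Collagen and other matrix genes rose. Of 9 fibrillar collagen genes 5 rose, each with all WTD-fed mice above all chow-fed mice, and 1, Col5a3, fell slightly (-0.39, adjusted p = 0.0099 in the edgeR test). Col1a1, a chain of type I collagen, was at 15 to 80.3 CPM (median 31) on chow and 150.5 to 561 CPM (median 389.6) on WTD, where mouse 15 was lowest. Its log2 fold change was 3.55 (SE 0.248), those of Col1a2 and Col3a1 3.45 and 2.85. Other collagens rose in 15 of 24 and fell in 2, which were Col13a1 (-1.31) and Col18a1 (-0.34), the latter made by hepatocytes. Matrix glycoproteins and proteoglycans rose in 36 of 48 (median 1.42) and fell in 2, Ecm1 (-0.92) and Vtn (-0.74), which hepatocytes and stellate cells secrete in the healthy liver. Ltbp2, which binds fibrillin, was at 0.189 to 4.79 CPM (median 3.09) on chow and 11.6 to 97.2 CPM (median 59.2) on WTD. Lum, a collagen-binding proteoglycan, had a log2 fold change of 3.17 (SE 0.295). Fn1, fibronectin, was not called (-0.07, SE 0.092). Enzymes that process and crosslink collagen rose in 9 of 20 and fell in 3. Lox and Loxl1, lysyl oxidases, rose by 3.42 and 2.38, and Bmp1 and Loxl4 fell by 0.89 and 1.38.

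Matrix proteases and their inhibitors rose in 10 of 18 and fell in 1, Mmp19 (-0.57). Mmp12, the macrophage elastase, was at 1.92 to 13.2 CPM (median 5.72) on chow and 61.4 to 243 CPM (median 126) on WTD. Timp1, an inhibitor of these proteases, was at 0 to 1.39 CPM (median 0.356) and 1.88 to 18.6 CPM (median 10.6). Both sets of ranges are apart, although Timp1 had no count in 4 chow-fed mice. Mmp2 rose by 2.98 and Mmp7, an epithelial protease, by 5.25, or by 7.20 without chow mouse 1, which had 1.62 CPM of it against at most 0.254 in the other chow-fed mice. Mmp8 and Mmp13, which cut fibrillar collagen, had log2 fold changes of 3.62 and 0.84 and were not called at levels of a few CPM. Markers of stellate cells and myofibroblasts rose in 11 of 27 (median 0.53) and fell in 2. Pdgfrb was at 4.14 to 41.6 CPM (median 21.3) on chow and 50.4 to 119.8 CPM (median 79.1) on WTD, and Pdgfra rose by 2.10. Acta2, smooth muscle actin and the usual mark of stellate activation, was not called: it was at 3.86 to 44.4 CPM (median 9.39) on chow, the highest value being that of chow mouse 1, and at 2.65 to 15.9 CPM (median 7.21) on WTD. The fall of Tpm2 (-2.45) was not called without chow mouse 1, at -0.72 with an adjusted p of 0.031. Lrat, of quiescent stellate cells, was not called (0.53). In the TGF beta pathway 17 of 30 genes rose and 0 fell: Tgfb1 was at 9.22 to 25.3 CPM (median 14) and 34.8 to 69.2 CPM (median 43.6), Tgfb2 rose by 2.92 (3.83 without chow mouse 6) and Inhbb by 2.38.

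Genes of macrophages that take up lipid rose. Of 19 such markers 15 rose, 14 of them with no overlap between the diets, and the median was 1.84. Gpnmb was at 1.65 to 8.65 CPM (median 5.84) on chow and 173 to 620.1 CPM (median 473) on WTD, an 85.5-fold higher level (log2 fold change 6.42, SE 0.295, adjusted p = 1.9e-15 in the edgeR test). The lowest of the WTD values came from mouse 15, and the next lowest was 365. Trem2, a lipid receptor of macrophages, was at 2.01 to 9.2 CPM (median 4.54) and 18 to 102 CPM (median 74.3). Lpl (3.72), Lgals3 (3.49), Cd63 (3.02) and Spp1 (2.49) rose too. Apoe, which the list shares with hepatocytes, was the 1 fall. Atp6v0d2 (0.53) and Plin2 were not called. Kupffer cell markers did not move together, with 10 of 18 higher and 2 lower. Cd5l, a macrophage protein that binds lipid, was at 87.3 to 139 CPM (median 115) on chow and 727 to 1472 CPM (median 959.8) on WTD and had the lowest p of all tested genes (adjusted p = 5.2e-22 in the edgeR test). Adgre1, the F4/80 antigen, rose by 2.39. Clec4f and Timd4, which mark resident Kupffer cells, were not called: Clec4f was at 74.6 to 225 CPM (median 161) and 108 to 388 CPM (median 171), with mouse 15 highest, and Timd4 had a log2 fold change of 0.71 (SE 0.473). Fcna, a ficolin of these cells, fell, being at 46.9 to 111 CPM (median 74.3) on chow and 19.3 to 60.5 CPM (median 28) on WTD. Cd163, a haemoglobin scavenger receptor named after its values were seen, was at 0.452 to 19.9 CPM (median 9.51) on chow and at 0 to 1.28 CPM on WTD.

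Monocyte and recruited macrophage markers rose in 15 of 18 and fell in 0 (median 2.22), and their summed level was 184 to 306 CPM on chow and 937 to 2451 CPM on WTD. Its part in the rises of the other immune, protease and lysosome lists was not tested. Clec7a, the receptor Dectin-1, was at 3.72 to 13.7 CPM (median 9.76) on chow and 65.9 to 179.6 CPM (median 135) on WTD. Cd68 rose by 2.58, Cx3cr1 by 2.26 and Ccr2, the receptor that brings monocytes to tissue, by 2.17. Class II antigen presentation rose in 8 of 12 and fell in 0, with H2-Aa at 36 to 105 CPM (median 54.5) and 188 to 539 CPM (median 407). Genes of the phagocyte NADPH oxidase rose in 6 of 7, with Cybb, its core subunit, at 2.76. Lysosome genes and cathepsins rose in 24 of 38 and fell in 1, Lamp2 (-0.36). Ctss, a cathepsin of antigen-presenting cells, was at 36 to 67.8 CPM (median 48.5) on chow and 193 to 491 CPM (median 409) on WTD. Ctsk rose by 3.88 and Ctsb by 1.16.

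Markers of other leukocytes were low and mostly not called. Of 20 T and NK cell markers 1 rose, Il7r (2.91), and 0 fell. Their median log2 fold change was 0.69, with 17 above 0 and 3 below. Cd3e was at 0 to 3.41 CPM (median 0.932) on chow and 0 to 4.36 CPM (median 1.56) on WTD, Cd8a at 0 to 5.98 CPM (median 1.33) and 0.39 to 5.6 CPM (median 1.89). At these levels of a few CPM no difference was detectable, and the 4 libraries without a Cd3e count were among the 8 that missed many weakly expressed genes. Of 13 neutrophil markers 5 were tested (median 1.43), and 2 rose, S100a9 (named after its values were seen) and Csf3r (1.21). S100a8 was not called (2.17, adjusted p = 0.012 in the edgeR test). Dendritic cell markers rose in 1 of 12, Fscn1 (1.42), and had a median of 1.14, with 11 above 0 and 1 below. Among B and plasma cell markers 2 of 16 rose, Cd22 at 1.44 being 1, and 2 fell, Sdc1, which hepatocytes also carry (-0.50), and Ighm (-2.36). The fall of Ighm rested on chow mouse 1: without it the log2 fold change was 0.54 and not called (adjusted p = 0.051).

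Signalling genes of inflammation rose unevenly. Chemokine ligands rose in 8 of 26 and fell in 1, Ccl27a (-0.98). Ccl2, which attracts monocytes, was at 0.3 to 6.94 CPM (median 2.49) on chow and 9.17 to 19.6 CPM (median 14.2) on WTD. Ccl6 rose by 3.73 and Cx3cl1 by 3.39, whereas the interferon-induced Cxcl9 (-0.18) and Cxcl10 (0.70) and the T cell chemokine Ccl5 (-0.15) were not called. Among cytokines, Toll-like receptors and inflammasome genes 18 of 35 rose and 2 fell. Tlr2 was at 0 to 7.14 CPM (median 4.31) on chow and 17.3 to 47.4 CPM (median 26.7) on WTD. Tlr13 rose by 3.11 and Nlrp3 by 1.71, while Il1b (0.50) and Tnf (1.94) were not called and Il18 fell by 0.64. NF-kappaB subunits and their feedback genes rose in 9 of 16 and fell in 1, the kinase gene Chuk (-0.71). Tnfaip3 (3.14) and Relb (1.95) rose. Interferon response genes rose in 13 of 29 and fell in 3. Ubd, the ubiquitin-like protein FAT10, was at 0 to 3.6 CPM (median 0.276) on chow and 3.2 to 45 CPM (median 28.8) on WTD, Oas3 rose by 2.58, and Iigp1, Stat2 and Ifi27 fell by 0.89, 0.73 and 0.41.

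Markers of cholangiocytes and the ductular reaction rose in 20 of 23 and fell in 0 (median 1.80). Krt19, a duct keratin, was at 2.4 to 11.1 CPM (median 3.66) on chow and 7.28 to 38.6 CPM (median 14.5) on WTD. Epcam was at 2.47 to 9.79 CPM (median 5.69) and 5.42 to 33.6 CPM (median 24.4). In both genes the lowest WTD-fed mice lie within the chow range. For Krt19 this rests on chow mouse 2, at 11.1 CPM, as the other chow-fed mice were at 2.4 to 4.61 CPM. Cd24a, a progenitor marker, did separate the diets, at 3.5 to 10.8 CPM (median 5.97) and 12.3 to 44.3 CPM (median 27.3), and Sox9 rose by 1.29 and Tspan8 by 2.85. Sinusoidal endothelial markers fell in 5 of 18, among them Ehd3 (-1.25) and Clec4g (-1.19), and rose in 2, Lyve1 (1.57) and Mrc1 (0.49), the latter also a macrophage gene. Stab2 was not called (0.06, SE 0.0949). Vascular endothelial markers rose in 6 of 19 and fell in 1, Ptprb (-0.81). Vcam1, an adhesion molecule, was at 13.7 to 39.8 CPM (median 19.3) on chow and 43.3 to 98.7 CPM (median 74.7) on WTD, Cd34 rose by 2.52, and Plvap (-0.20) and Vwf (0.39) were not called. Annexin and S100 genes rose in 11 of 18 and fell in 1, S100a1 (-0.58). Anxa2 was at 23.1 to 46.9 CPM (median 34.7) and 75.8 to 259.8 CPM (median 221), without overlap.

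**Figure D5:**
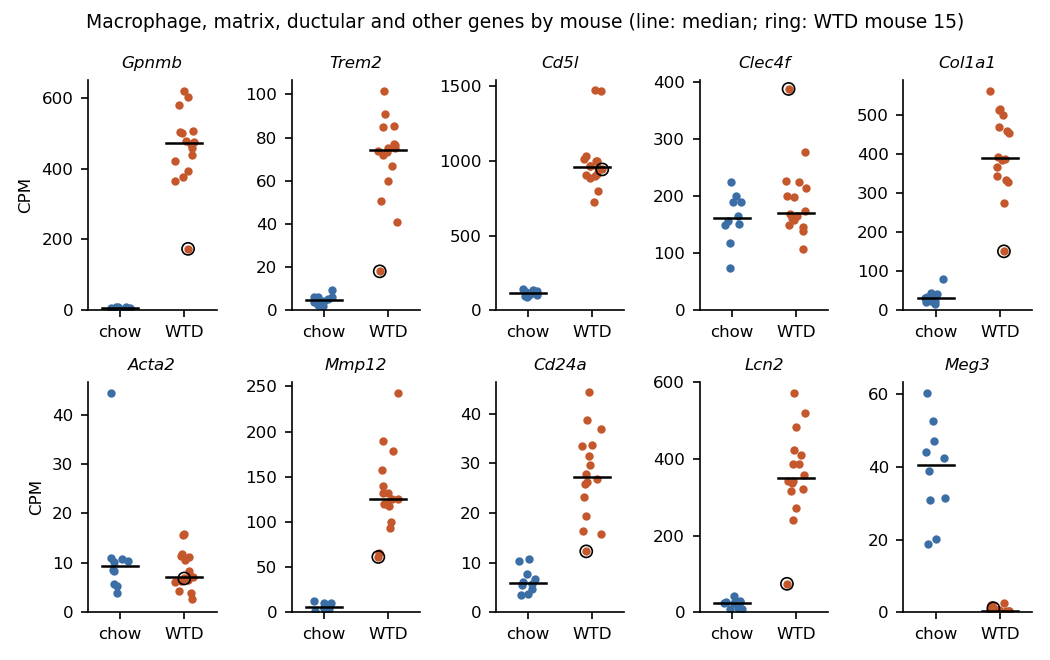
CPM of 10 genes of macrophages, matrix, ducts and other groups in each mouse, with chow (10 mice) and WTD (16 mice) side by side, a line at the median and a ring around WTD mouse 15. Gpnmb, Trem2, Col1a1, Mmp12, Cd24a and Lcn2 are lowest on WTD in mouse 15 and still above all chow-fed mice, while its Cd5l is at the level of the group and its Clec4f is the highest.

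Stress response genes were mixed. NRF2 targets and antioxidant genes rose in 10 of 26 and fell in 4. Hmox1, haem oxygenase 1, was at 14.8 to 49.8 CPM (median 25.5) on chow and 58.9 to 178 CPM (median 72) on WTD, and Nqo1 rose by 0.59. G6pdx, which supplies NADPH, rose by 2.06, and Sod1 and Cat, superoxide dismutase and catalase, fell by 1.02 and 0.71. Mt1 and Mt2, the metallothioneins, were not called (-0.81 and -0.46). In the unfolded protein and integrated stress response 2 of 25 rose, Creb3l1 (1.97) and Eif2ak3 (0.62), and 8 fell, led by Pdia4 (-0.74) and Sel1l (-0.68). Ddit3 (-0.39), Atf3 (1.32), Gdf15 (0.74) and Fgf21 (1.21) were not called. Cell death genes rose in 8 of 23, with Casp12 at 1.95 and Tnfrsf12a at 1.75, and fell in 1, Fas (-0.41). Cell cycle genes rose in 8 of 40 and fell in 0 (median 0.51). The 20% that rose stand beside 15.5% of all tested genes called higher and 29.4% called in either direction. Ccnd1, cyclin D1, rose by 0.86 and the cell cycle inhibitor Cdkn1a by 1.35, whereas Mki67 (0.36, SE 0.228) and Top2a (0.57), which mark dividing cells, were not called.

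Clock genes were called in both directions, 3 of 19 higher and 4 lower. That is 36.8% of the list, beside 29.4% of all tested genes. The hour at which each mouse was killed is not given in the sources used here. Nfil3 fell, being at 35.5 to 128 CPM (median 101) on chow and 14.5 to 44 CPM (median 34.2) on WTD, and Bhlhe40 rose by 1.19. Dbp spread from 0 to 81.9 CPM on chow and from 3.22 to 183 on WTD and was not called. Cytosolic ribosomal proteins stood nearly still by comparison, with 8 of 78 higher, 2 lower and a median of 0.07. Without both mice that stood apart there were 14 rises and 1 fall. Proteasome subunits fell in 13 of 38 and rose in 3 (median -0.19), Psmd4 being lower (-0.45) and Psmd8 higher (0.65). Iron genes rose in 7 and fell in 7 of 22: Steap4, a metalloreductase, rose by 1.37, and Tfr2, a sensor of transferrin, fell by 0.92.

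Among long noncoding and imprinted RNAs 2 of 10 rose and 4 fell. Meg3, expressed from the maternal chromosome, was at 18.8 to 60.2 CPM (median 40.6) on chow and 0 to 2.49 CPM (median 0.5) on WTD, and its neighbour Rian, named after its values were seen, at 3.13 to 23.7 CPM (median 13.1) and 0 to 1.29 CPM (median 0). Both transcripts of this imprinted region of chromosome 12 were thus near 0 in all 16 WTD-fed mice and present in all 10 on chow. H19, imprinted and fetal in the liver, went the other way: it was at 26.6 to 172 CPM (median 107) on WTD and at most 1.87 CPM on chow, apart from chow mouse 1, which had 107. Xist, the RNA of the inactive X chromosome, also named after its values were seen, was at 493 to 714 CPM (median 645) on chow and 239 to 372 CPM (median 309) on WTD, without overlap. Erythroid markers rose in 4 of 7, with Hbb-bs at 0.99, and fell in 0. Adipocyte and mesothelial markers rose in 3 of 7, 1 of them Wt1 (1.55), and fell in 0. Of the pancreatic acinar markers 1 could be tested and was not called.

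The 15 largest rises among called genes with a mean of at least 100 counts were led by Gpnmb and St18. Many of them were nearly absent on chow, and their fitted fold changes depend on the model's prior. Gdf3, a member of the TGF beta family, was at 0 to 1.03 CPM (median 0.303) on chow and 3.73 to 29.7 CPM (median 14) on WTD. Ly6d, a surface protein of epithelial and lymphoid precursors, was at 0 to 10.7 CPM (median 3.25) and 18.3 to 143 CPM (median 101), and Acod1, which makes itaconate in activated macrophages, at 0 to 2.01 CPM (median 0.153) and 2.28 to 68.4 CPM (median 6.22). Fhl2, a LIM protein, was at 0 to 1.44 CPM (median 0.771) and 0 to 33 CPM (median 20.1), and the WTD-fed mouse without a count was mouse 15. The 15 largest falls were led by Sult3a1, A1bg and Meg3, and 8 of the 15 were P450 or sulfotransferase genes, with Eci3, a peroxisomal isomerase (-4.43), and Mup22 (-4.09) among them. Tnni2, a troponin of skeletal muscle, was on that list only through chow mouse 1. It was at 186 CPM there and at most 0.941 in the other chow-fed mice, and without that mouse its log2 fold change was 2.00 and not called (adjusted p = 0.14). Most called genes, 3558 of 4399, were in none of the 69 lists.

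WTD mouse 15 was not equally far from chow in all lists. By the mean log2(CPM + 0.5) over a list's tested genes it fell outside the range of the other 15 WTD-fed mice in 41 of 69 lists. In cholesterol synthesis it had covered 81.5% of the distance from the chow mean to the mean of the other WTD-fed mice and lay within their range. Metabolic lists and lists of other cells were both spread. The distance covered was 19.9% in sulfotransferases, 26.8% in P450, 30.6% in amino acid breakdown and 27.9% in hepatocyte markers, but 45.9% in secreted proteins, 58.3% in ATP synthase and 83.8% in complex I. It was 24.1% in cholangiocyte markers, 34.7% in fibrillar collagens, 59.7% in lipid-associated macrophages and 72.7% in monocytes. Over single genes, 44.6% of all called genes of mouse 15 were nearer the chow mean than the mean of the other WTD-fed mice, against 2.18% to 17.8% in these. Its 142 CPM of Cyp7a1 and 83318 CPM of Alb were the highest of the WTD group, and its 10.6 CPM of Sqle and its 21320.2 CPM of Scd1 lay inside it.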

How the data were processed

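RNA was isolated from the liver of each mouse, and read pairs per gene were counted by the authors. According to the submitters' processing notes and the study's methods, reads were trimmed with Trimmomatic, aligned to GRCm38 with STAR 2.5 and assigned to genes with HTSeq 0.6.1p1, and the deposited values are raw counts, not normalized and not pooled. Gene names came from GENCODE vM21 and matched 54409 of 54446 identifiers. The counting program's summary lines were kept out of library sizes and tests: on average, reads outside genes were 2.41% on chow and 2.31% on WTD, reads on overlapping genes 5.80% and 6.26%, and reads with several alignments 5.15% (4.69% to 5.36%) and 4.35% (4.07% to 4.71%). Reads from overlapping or near-identical genes may be split or lost, and whether the difference in these shares bears on such genes was not tested. Counts without a match to a mouse were in 0 columns. No 2 libraries of a group agreed within sampling noise, and whether mice shared a litter or a day is not given in the sources used here.

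Genes were kept by edgeR's filterByExpr (minimum count 10, minimum total 15), scaled by TMM and tested with edgeR 4.0.16 (R 4.3.3) by the robust quasi-likelihood test over the 26 libraries, with diet as the only term and Benjamini-Hochberg adjustment, at an adjusted p under 0.01. The threshold is that of the study's methods, and the script was tested on simulated data. The SE given is the size of the log2 fold change divided by the square root of the test's F statistic. Library properties were compared by two-sided permutation tests with 100000 resamples, adjusted over the 4 properties. A chow value far from the other chow values was found by Dixon's ratio on log2(CPM + 0.5), with a limit of 0.466. Genes named were the fixed examples of 69 lists, the 15 largest called rises and falls with a mean of at least 100 counts, in each list the 2 largest called rises and falls of that level, and the 10 most abundant called genes. Others are said to be named after their values were seen. The comparison, the lists and the examples were chosen with earlier results of these data known. Alternatives used DESeq2 1.42.0, limma 3.58.1 and other scalings, filters and sets of mice, and leaving out both mice that stood apart was added after seeing the data. Libraries of atorvastatin-treated mice entered 1 alternative only. Some genes are not reported here.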

Additional observations from a re-analysis of the deposited data

Results flagged for a closer look

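In 41 of the 242 genes named, 1 chow-fed mouse lay far from the other 9, by Dixon's ratio of the gap to the range. The ratio was taken on log2(CPM + 0.5), while the values below are in CPM. Chance alone gives such a value in about 1 of 20 groups, and the genes share the same mice. The WTD group, with 16 mice, was not screened. Chow mouse 1 stood apart as the highest chow value, in CPM, of Acta2 44.4 (others 3.86 to 11), H19 107 (others 0 to 1.87), Ighm 1370.1 (others 11.5 to 36.2) and Lpl 172 (others 25.3 to 57.8). It was also the highest of Mmp7 1.62 (others 0 to 0.254), Pkm 99 (others 20.2 to 41.9), Tnni2 186 (others 0 to 0.941) and Tpm2 400.3 (others 8.34 to 33.2). Chow mouse 1 stood apart as the lowest chow value, in CPM, of Clec7a 3.72 (others 7.07 to 13.7). Chow mouse 10 stood apart as the lowest chow value, in CPM, of Mup22 20.6 (others 33.5 to 51.9). Chow mouse 2 stood apart as the highest chow value, in CPM, of Csf3r 22.4 (others 4.68 to 8.86) and Krt19 11.1 (others 2.4 to 4.61). Chow mouse 2 stood apart as the lowest chow value, in CPM, of Atf3 0.127 (others 4.2 to 31.5), C8b 94 (others 136 to 197), Lrat 4.58 (others 18.1 to 52.7) and Pdgfrb 4.14 (others 14.7 to 41.6). It was also the lowest of Scd2 3.12 (others 8.74 to 17.6), Soat1 0.955 (others 3.62 to 9.6) and Sox9 1.78 (others 7.45 to 17.5). Chow mouse 2 was at 0 CPM in C3ar1, Ccl6, Creb3l1, Cxcl10, G6pdx and Tlr2, where the lowest other chow-fed mouse had 1.24 to 3.33. The libraries of chow mice 2, 5 and 6 missed 57.3%, 43.1% and 24.4% of weakly expressed genes. The part of this in their flagged values was not tested. Chow mouse 4 stood apart as the highest chow value, in CPM, of Lamp2 819 (others 549 to 634). Chow mouse 4 stood apart as the lowest chow value, in CPM, of Arg1 984 (others 1233 to 1585) and Asl 468 (others 711 to 920.4). Chow mouse 5 stood apart as the lowest chow value, in CPM, of Abcg1 1.41 (others 5.31 to 13.5), Ccl27a 7.53 (others 18.2 to 32.1), Cd163 0.452 (others 5.83 to 19.9) and Cux2 10.0 (others 43.1 to 105). It was also the lowest of Cyp7b1 10.0 (others 29.8 to 58.1), Oas3 0.10 (others 1.45 to 3.47) and Socs2 9.89 (others 35.1 to 80.1). Chow mouse 6 stood apart as the highest chow value, in CPM, of Tgfb2 5.44 (others 0 to 1.26). Chow mouse 6 stood apart as the lowest chow value, in CPM, of Cat 2148 (others 2468 to 2644). Chow mouse 6 was at 0 CPM in Plin4, where the lowest other chow-fed mouse had 3.91. Chow mouse 7 stood apart as the lowest chow value, in CPM, of Ltbp2 0.189 (others 2.11 to 4.79). Chow mouse 8 stood apart as the highest chow value, in CPM, of Mmp8 1.08 (others 0). Chow mouse 9 stood apart as the lowest chow value, in CPM, of Cyp3a41a 17 (others 78.7 to 203).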

How the results depend on the processing

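No paired analysis was possible because the mouse numbers in the labels only name different animals in each diet group. Across the other scalings, filters, tests and sets of mice, the number of called genes ran from 3722 (at least 10 counts in every library) to 6144 (limma-voom with quality weights). With DESeq2 it was 4919, and without a filter on low counts 5151. It ran from 4123 to 4544 when each mouse was left out in turn, with 2154 to 2375 higher and 1962 to 2187 lower. At an adjusted p under 0.05 it was 5840. With a log2 fold change of 1 or more in size required too, 1809 genes were left, 1360 higher and 449 lower. The 912 genes without overlap between the diets became 913 to 1370 with 1 mouse left out, the highest without WTD mouse 15, then 1448 without it and chow mouse 1, and 2513 without the 8 libraries that missed weak genes. Fewer mice make overlap rarer by construction. Of 242 genes named, 215 kept their call in each of the 12 alternatives and 26 omissions that tested them. A gene that a setting left out was not compared there. With at least 10 counts in every library 10023 genes were tested. Reversed values came from genes of chow mouse 1: the log2 fold change of Ighm was 0.54 with DESeq2 and 0.59 without both mice, and ran from -2.50 to 0.54 with 1 mouse left out, and that of Tnni2 was 1.93 with DESeq2, 1.85 with limma-voom and 2.09 without both mice, and ran from -5.23 to 2.00. The calls of Hk2, Col5a3, Cox7a2l and Il18, close to the threshold, were lost under 25, 23, 20 and 21 of these 38 settings, and Tpm2 lost its call with DESeq2, limma-voom and without chow mouse 1. Calls of H19, G6pc, Hnf4a and Nlrp3 were lost in 5 or 6 settings. Atf3, Atp6v0d2 and Mmp8 were called in 9 to 11. The cause was not tested. A list median was counted as moved when it shifted by more than the SD between mice of the list's mean level. This held for 28 of 2621 values, in 16 of the 69 lists. The median log2 fold change of the fibrillar collagens was 2.44 with at least 10 counts in every library, which leaves fewer genes. That of B and plasma cell markers was -0.95 with all mice and 0.33 without chow mouse 1. Of genes at 1 to 2 CPM, WTD mouse 15 with 25871885 counts missed 21.9% and WTD mouse 5 with 18492581 missed 0.166%, so total counts alone do not set this share in the WTD group, and its cause was not tested.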
